A study of Mus musculus with 4 samples.

Results

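The regions described here are stretches of open chromatin that were strong in mouse classical dendritic cells type 1 (cDC1) and had no counterpart in the list of plasmacytoid dendritic cells (pDC). Open chromatin was measured by Omni-ATAC-seq, in which the transposase Tn5 cuts accessible DNA, and footprints, short stretches protected from cutting inside an open region, were called with HINT-ATAC. A region was chosen when its cDC1 interval shared no base with a pDC interval and its strongest footprint had a tag count, T, of at least 400. Chromosomes X and Y were left out. Of 83701 cDC1 intervals, 81875 lay on the 19 autosomes, and 4169 of these met both conditions.

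Both cell types were grown from mouse bone marrow in a two-step culture, amplified first with cytokines and then differentiated with Flt3 ligand, and no further treatment was named. They were sorted as CD11c+ CD11b+ XCR1+ cells (cDC1) or CD11c+ CD11b- B220+ cells (pDC), so each is a cell of culture and not of tissue. Each cell type had 2 replicate samples, which the authors merged before footprinting; whether peaks were called after merging is not stated. The lists hold 1 value per region and cell type, no spread between replicates can be given, and no difference between cDC1 and pDC was tested.

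cDC1 take up antigen from other cells and present it to CD8 T cells, and their development depends on the factors Irf8 and Batf3. pDC are known for secreting type I interferon and depend on the factor Tcf4. Both arise from common dendritic cell progenitors. Regions open in one of 2 related cell types are often enhancers, while promoters of genes used by every cell tend to be open in both. The lists carry positions of the mouse build mm9 and no gene names, so the regions are named by their positions.

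Strong regions were found in cDC1 only less often than weaker ones. Of all cDC1 intervals on autosomes, 50.7% had no pDC interval, against 17.1% of the 24398 intervals with T of at least 400. These shares are set by the rule and are descriptions. The share fell at each step of T, from 80.8% of 17030 intervals with T under 100 (95% Wilson interval 80.2% to 81.4%) to 43.2% at T of 300 to 399, 35.1% at 400 to 499 and 18.5% at 600 to under 800. It was 2.00% of 3002 intervals at T of 1200 to 1599. Above that, a single interval of 1574 was found in cDC1 only. Intervals of this kind cover counting error only, here and in what follows, and neighbouring regions are not independent.

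**Figure D1:**
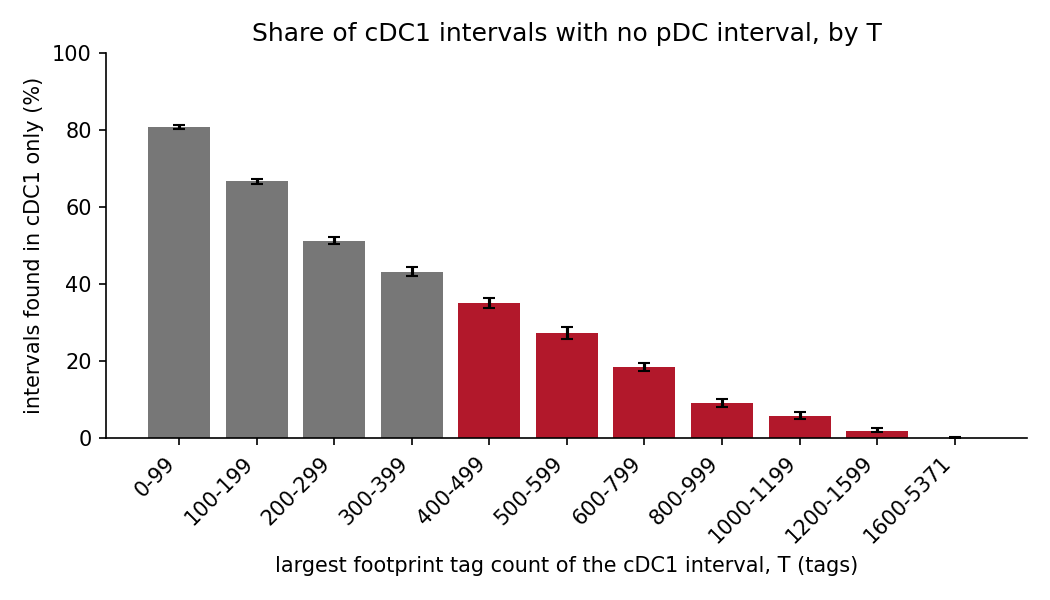
Share of autosomal cDC1 intervals that shared no base with a pDC interval (y axis, %), by the largest footprint tag count T of the interval (x axis, tags). Bars are shares, lines are 95% Wilson intervals, and red bars are at or above the limit of 400. The share is 80.8% in the lowest class and 35.1% in the first class above the limit.

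The chosen regions sat mostly near the limit. Their T had a median of 537, with quartiles of 455 and 672 and a largest value of 1602. T was at least 800 in 544 regions (13.0%) and at least 1200 in 61 (1.46%). The 102 regions just inside the limit, with T of 400 to 404, had a median pileup (the number of reads stacked at the summit) of 167.5 and a median width of 486 bp. The 113 cDC1-only intervals just outside it, with T of 395 to 399, had a median pileup of 163 and a median width of 477 bp. The limit therefore cuts through a continuous range. The 20229 strong cDC1 intervals that were shared with pDC had a median T of 807, and the 37344 weaker cDC1-only intervals a median T of 122.

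Because T differs between the cDC1-only and the shared strong regions, the 2 sets were compared within classes of T. The cDC1-only regions were narrower, and their number of footprints did not grow with T. At T of 400 to under 600 the median width was 487 bp in 2648 cDC1-only regions (95% interval of the median 482 to 492) and 571 bp in 5687 shared regions (565 to 580). At T of 600 to under 800 it was 529 bp against 682 bp, and at 800 to under 1200 it was 559 bp against 792 bp. The 61 cDC1-only regions with T of 1200 or more had a median width of 613 bp (579 to 635), against 972 bp (960 to 983) in 4515 shared regions, whose T reached 5371. T is not matched within this class, and its median pileups were 559 reads in cDC1-only and 638 in shared regions. This holds for each later comparison in the class. A wider interval has more bases at which a pDC interval could overlap it, so the rule itself bears on width; its part in the difference was not tested.

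The median number of footprints was 6 in the cDC1-only regions in each of the 4 classes of T. In the shared regions it was 7, 8, 9 and 11. The density of footprints was closer: 12.0 per kb in cDC1-only and 11.3 per kb in shared regions at T of 400 to under 600, and 10.4 against 10.9 per kb at T of 1200 or more. Footprints covered 23.2% of the bases of the cDC1-only regions and 21.6% of the bases of the strong shared regions. The difference in number thus went along with the difference in width.

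**Figure D2:**
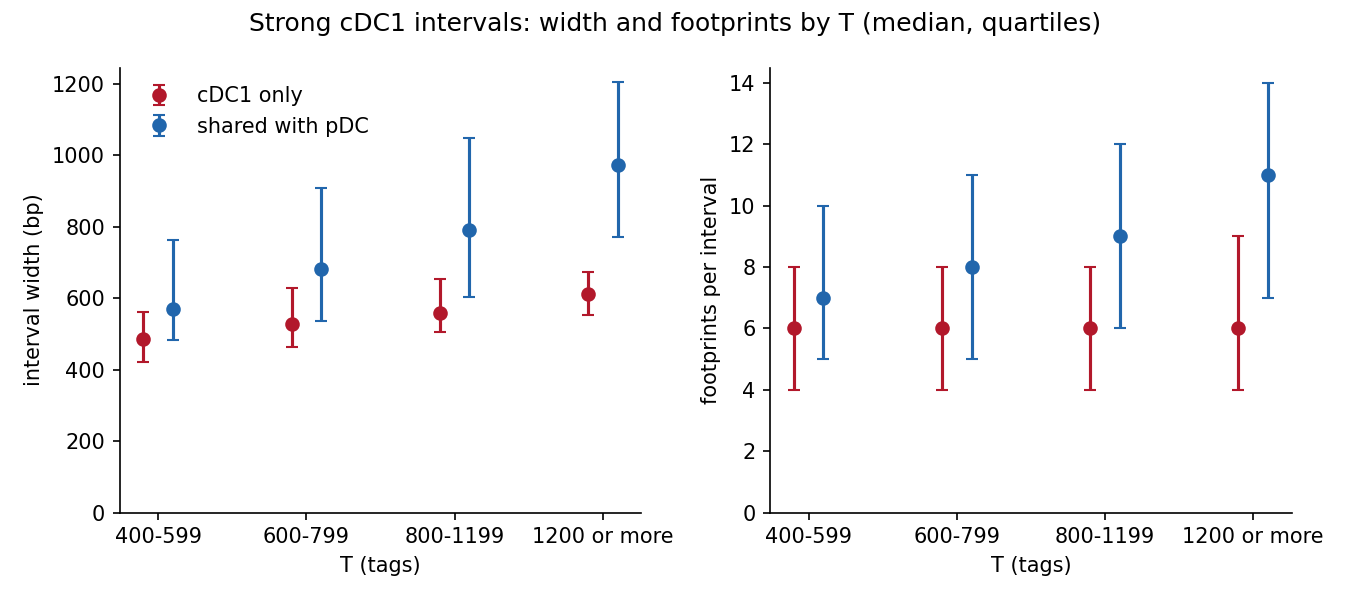
Interval width (left, bp) and footprints per interval (right) for strong cDC1 intervals in 4 classes of T (x axis, tags). Points are medians and lines run from the first to the third quartile over intervals, in red for regions found in cDC1 only and in blue for regions shared with pDC. Median footprints stay at 6 in red and go from 7 to 11 in blue.

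The cDC1-only regions mostly had a single summit. MACS2 gave more than 1 summit in 251 of 4169 regions (6.02%, 95% Wilson interval 5.34% to 6.78%), against 5070 of 20229 strong shared regions (25.1%, 24.5% to 25.7%). The gap was there in each class of T: 5.17% against 16.6% at T of 400 to under 600, and 6.56% of 61 regions against 34.1% at T of 1200 or more. Among regions with a single summit only, the median width was 481 bp against 534 bp in the lowest class and 550 bp against 682 bp at T of 800 to under 1200, so the difference in width remained without the regions with several summits.

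Together the 4169 regions held 26274 footprints, from 1 to 24 per region. A single footprint was listed in 146 regions (3.50%). The tag counts of these footprints ran from 21 to 1602 with a median of 439, and 62.6% of them were themselves at 400 or more. In the 4023 regions with more than 1 footprint, the weakest had a median of 45.9% of the tag count of the strongest. The footprints had a median width of 16 bp, against 15 bp in the strong shared regions.

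Footprints gathered at the summit. A footprint lay on the summit in 61.2% of the cDC1-only regions (95% Wilson interval 59.7% to 62.7%). At T of 400 to under 600 this share was 60.0% (58.1% to 61.9%) in cDC1-only and 56.1% (54.8% to 57.3%) in shared regions. The intervals overlapped in the other classes, with 61.4% (58.3% to 64.4%) against 59.2% (57.7% to 60.7%) at T of 600 to under 800, 65.4% against 63.1% at 800 to under 1200, and 75.4% of 61 regions (63.3% to 84.5%) against 66.5% above. Over all strong shared regions it was 61.0%. The strongest footprint had its centre within 50 bp of the summit in 87.8% of the cDC1-only regions in that class (86.5% to 89.0%) and in 76.1% of the shared ones (74.98% to 77.2%). In the higher classes it was 91.4%, 91.5% and 95.1% against 75.6%, 75.4% and 77.7%. In the weaker cDC1-only intervals it did so in 69.6%. T and the pileup at the summit are both drawn from the same reads, so the nearness of the strongest footprint to the summit is a description of shape. The summit used is the one with the largest −log10 q, and more of the shared regions had several summits. This contrast was not repeated in regions with a single summit.

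The footprints thinned out on both sides of the summit and came back farther out. At T of 400 to under 600, a footprint covered 60.0% of the cDC1-only regions at the summit, 7.48% at 150 bp on the side of lower coordinates and 5.68% at 150 bp on the other side, counted over the regions that reach that far. At 250 bp the shares were 16.8% of 1096 regions and 14.7% of 1119 regions. The shared regions of the same class had 12.8% and 10.1% at 150 bp, and 14.3% and 9.82% at 250 bp. The points at 250 bp hold only the wider regions, and many of these end near there.

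**Figure D3:**
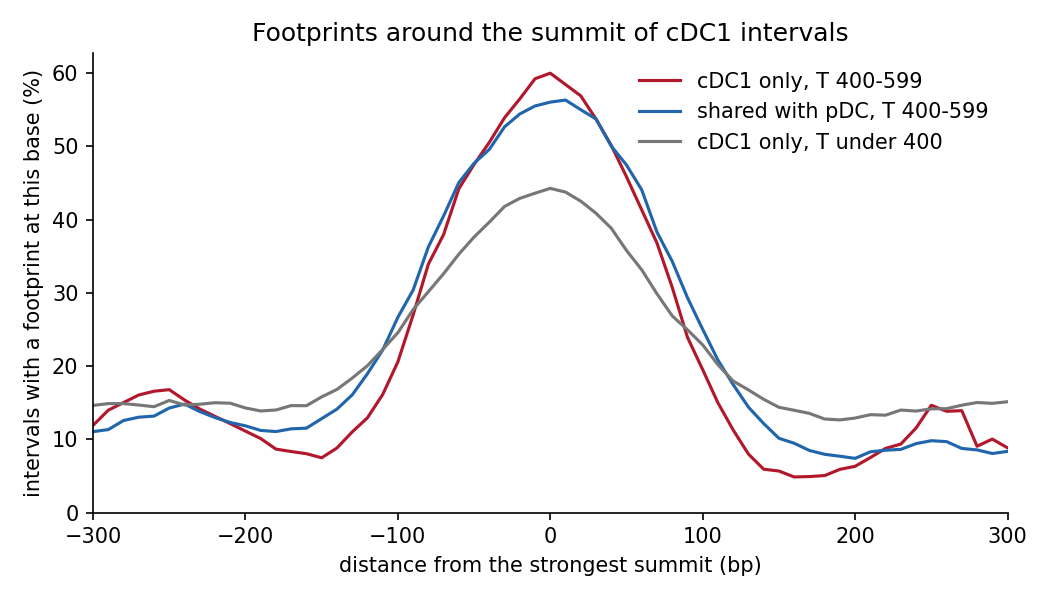
Share of intervals with a footprint at a base (y axis, %) by distance from the strongest summit (x axis, bp), over the intervals that reach that distance. The red line, cDC1-only regions with T of 400 to under 600, is at 60.0% at the summit and at 7.48% and 5.68% at 150 bp on either side; the blue line shows shared regions in the same class and the grey line cDC1-only intervals with T under 400.

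The deposited fold enrichment and −log10 p of a summit together fix the pileup and the background that MACS2 set against it. Solved for both, the pileup came out within 0.01 of a whole number of reads for 99.987% of 94222 cDC1 summits and 99.993% of 59941 pDC summits. The background was not the same everywhere. It stood at its lowest value, 12.0 reads, at 26.3% of cDC1 summits and was above it at the others; in pDC the lowest value was 6.88 reads. The methods of the study name a setting without local background, and the values of the lists go against that. The lowest backgrounds of cDC1 and pDC had a ratio of 1.75, which was taken as the ratio of depths.

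The cDC1-only regions were high in reads and also had a raised background. No control library was named, and without one the background is drawn from the same reads as the pileup and T. The values are therefore descriptions of regions chosen by T. Their pileup had a median of 226 reads (137 to 726) and their background a median of 28.7 reads (12.0 to 226). In the weaker cDC1-only intervals the medians were 55 and 12.9 reads. The background was at its lowest value in 18 of the 4169 regions (0.432%), against 43.8% of the weaker cDC1-only intervals and 0.188% of the strong shared ones. In classes of T the pileups of cDC1-only and shared regions were close, with medians of 199 and 207 reads at T of 400 to under 600 and 397 and 409 at 800 to under 1200. The fold enrichment of the cDC1-only regions had a median of 8.18, with quartiles of 5.08 and 11.4.

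The background went along with the surroundings of a region. Since it is drawn from the same reads, its relation to nearby intervals is a description. How far reads of the region itself and of its neighbours enter its background was not tested. When the regions were ordered by background and cut into 4 classes of equal size, the lowest class (12.0 to 19.9 reads) had a median distance of 12434 bp to the nearest pDC interval and a median width of 542 bp. The highest class (47.1 to 226 reads) had a median distance of 1429 bp and a median width of 418 bp. The median pileup was 200 reads in the lowest and 246 in the highest class, and the median fold enrichment was 12.0 and 3.72. Fold enrichment is taken over the same background that orders the classes, so its fall is a description.

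The pDC list had the lower background, so each pileup and background in cDC1 was divided by the ratio of depths and set beside the smallest pileup that could have been listed in pDC. The limit on T picks regions of high pileup, so most of what this gives is fixed by the rule, and the values are descriptions. The smallest pileup rests on the −log10 p at a summit alone, and the length of an interval does not enter it. It was taken from the weakest pDC summit, with a −log10 p of 3.28, and a background never under 6.88 reads. It had a median of 31 reads over the 4169 regions, whose scaled pileups had a median of 129. The scaled pileup reached it in 4167 regions (99.95%), at a median of 4.38 times. Of the weaker cDC1-only intervals 91.9% reached it, with a median of 1.48 times.

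Depth is one way to scale the lists, and shared regions gave a larger ratio. The median ratio of cDC1 to pDC pileups was 3.13 over 40362 shared intervals and 3.82 over the 20229 strong ones. Divided by these, 4157 (99.7%) and 4150 (99.5%) of the strong cDC1-only regions reached it, at medians of 3.44 and 2.97 times. The weaker intervals depended on the choice, with 49.2% and 37.5%. The strong shared intervals are chosen by their T in cDC1, which itself bears on the larger ratio. The background of a region in pDC is not known where no summit is listed there, and the scaled cDC1 background stands in for it. The part of depth in the absence of these regions from the pDC list was not tested.

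**Figure D4:**
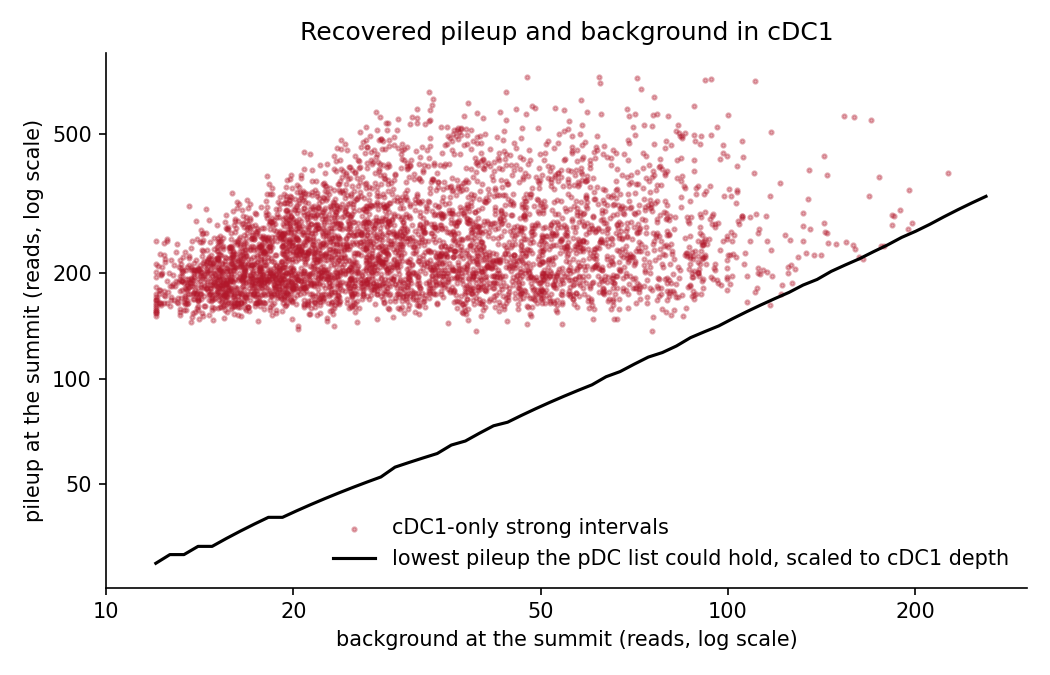
Pileup (y axis, reads, log scale) against background (x axis, reads, log scale) at the strongest summit of each of the 4169 cDC1-only regions (red points). The black line is the smallest pileup that the pDC list could hold by its −log10 p alone, multiplied by the ratio of depths of 1.75. Of the points, 4167 reach it, and those nearest to it lie at high background.

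The tag counts can be scaled in the same way, again as a description of what the rule chose. The median ratio of T in cDC1 to T in pDC was 3.22 over 39474 shared intervals with tags in both and 3.89 over the strong ones. Divided by 3.22, the limit of 400 became 124 tags and the median T of the regions 167 tags, while the 51097 pDC intervals on autosomes had a median T of 105. Of these, 57.9% lay under the scaled limit itself and 69.3% under the scaled median. With the ratio of 3.89 the shares were 49.0% and 62.1%. That ratio is over intervals chosen by their T in cDC1, which itself bears on it.

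Most of the regions lay near a region open in pDC. The distance to the nearest pDC interval had a median of 3600 bp (95% interval 3414 to 3771), with quartiles of 1393 and 10253 bp. It was 1 kb or less for 764 regions (18.3%, 17.2% to 19.5%) and over 50 kb for 172 (4.13%). The weaker cDC1-only intervals were farther away, with a median of 6942 bp (6830 to 7056), 11.8% within 1 kb and 7.72% beyond 50 kb. The nearest pDC interval was itself shared with cDC1 for 88.9% of the strong regions (87.9% to 89.8%), against 85.1% for the weaker ones and 80.2% of all pDC intervals on autosomes.

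**Figure D5:**
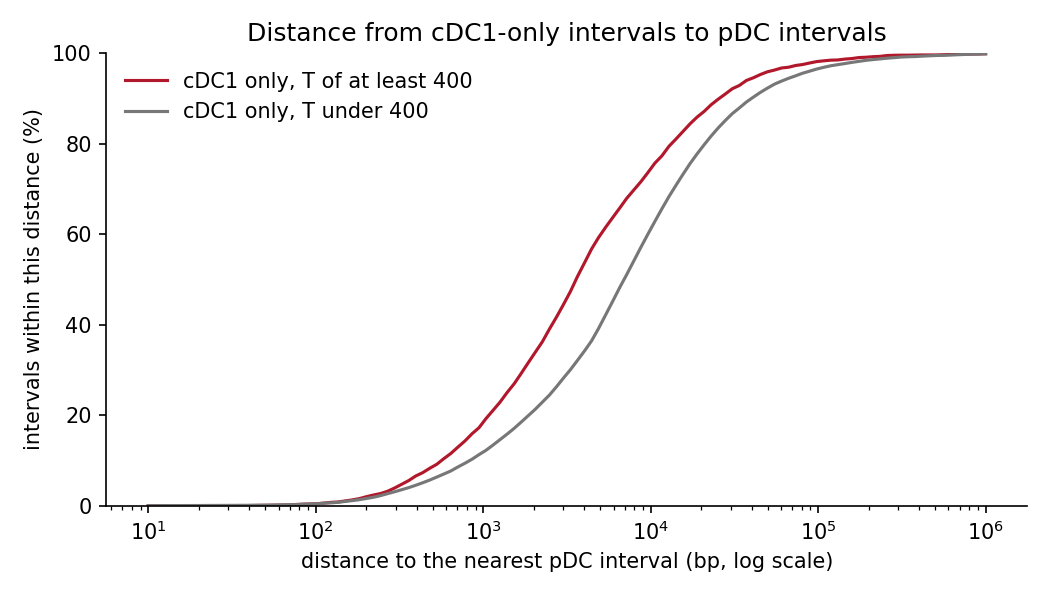
Cumulative share of cDC1-only intervals (y axis, %) by distance to the nearest pDC interval (x axis, bp, log scale), in red for the strong regions and in grey for those with T under 400. The red curve lies above the grey one at 1 kb (18.3% against 11.8%) and at 10 kb (74.3% against 61.1%).

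Among the chosen regions, median T hardly varied with this distance. The rule sets a lower limit on T, so the medians of T are descriptions. They cannot show whether strength depends on the distance. T had a median of 533 in the 764 regions within 1 kb of a pDC interval, 538 in the 2333 regions at 1 to 10 kb, 538.5 in the 900 at 10 to 50 kb and 545 in the 172 beyond. The background fell over the same classes, with medians of 46.2, 32.6, 19.3 and 17.2 reads. These too are descriptions, since the background is drawn from the same reads. Median width went from 454.5 bp within 1 kb to 560.5 bp beyond 50 kb.

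Within the cDC1 list itself the strong regions had close neighbours. The nearest other cDC1 interval was at a median of 1953 bp, against 3104 bp for strong shared and 3294 bp for weaker cDC1-only intervals. Another cDC1 interval lay within 1 kb of 31.0% of the strong regions (29.6% to 32.4%), against 24.96% of the strong shared and 22.8% of the weaker cDC1-only intervals. These neighbours were no more often cDC1-only than those of the other sets, at 47.2% (45.6% to 48.7%). The share was 48.0% for the strong shared and 53.7% for the weaker cDC1-only intervals, with 50.7% among all cDC1 intervals on autosomes. The nearest neighbours were strong cDC1-only regions in 10.4% (9.52% to 11.4%), against 8.31% for the strong shared and 4.71% for the weaker cDC1-only intervals. Such regions made up 5.09% of all intervals.

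On the chromosomes, the share of strong cDC1 intervals that were cDC1-only ran from 14.0% of 1220 on chromosome 8 (95% Wilson interval 12.2% to 16.1%) to 20.1% of 1599 on chromosome 1 (18.2% to 22.2%). Chromosome 11 held the most regions, 337 of 2097 strong intervals (16.1%). The median T per chromosome stayed between 513 on chromosome 7 and 563 on chromosome 8.

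Most regions had no other chosen region within 10 kb. With neighbours joined at distances of up to 10 kb, 3223 regions had no other within reach and 946 (22.7%, 21.4% to 24.0%) fell into 429 groups. Of these groups, 360 were pairs, 55 held 3 regions and 12 held 4. One group held 5 and one held 8. The share in groups moved with the limit on T, to 30.4% of 7131 regions with T of at least 300 and 12.4% of 1521 with T of at least 600. No comparison set was grouped in this way.

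The largest group lay on chromosome 18 (mm9 chr18:60939326-60975538) and held 8 regions in 36.2 kb. Their T, in order along the chromosome, was 422, 887, 424, 1035, 869, 579, 405 and 425. The strongest was the fourth, chr18:60956581-60957090, with a pileup of 422 reads over a background of 40.3 reads and 6 footprints. The background was 32.5 to 46.7 reads in the first 4 regions, reached 226 in the fifth, the highest of all 4169 regions, and was 159 to 168 reads in the last 3. Fold enrichment was accordingly low in these 4, from 1.33 to 1.97. The stretch held 14 cDC1 intervals in all, of which 6 were shared with pDC, one of them with a T of 2103 in cDC1. The 6 pDC intervals there had T of 292 at most.

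The next group, on chromosome 5 (chr5:120955353-120976719), held 5 regions in 21.4 kb with T of 526, 817, 448, 762 and 420. Between them lay 2 shared intervals, the stronger with a T of 2081, and 1 weaker cDC1-only interval. The background was 67.1 to 101.04 reads in the first 3 regions and 30.7 and 37.4 in the last 2. The third, chosen by genome position among the 12 groups of 4, lay on chromosome 2 (chr2:83582354-83594993) with T of 542, 426, 646 and 555. It differed from the others in that its 12.6 kb held no shared interval and no pDC interval. All 4 of its regions were more than 10 kb from the nearest pDC interval, at 12025 to 19052 bp.

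The 5 regions with the largest T all had a single summit. The first, chr11:74461350-74461937, had a T of 1602, a pileup of 721 reads over a background of 71.3 and 10 footprints, and a pDC interval began or ended 600 bp away. Its footprints showed the shape described above: the 6 within 70 bp of the summit had tag counts of 1468 to 1602, while the outermost on each side had 171 and 145. The second, chr2:30907803-30908476, had a T of 1594, a pileup of 726 reads over 47.5 and 4 footprints. It also had the second largest −log10 q, 564.

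The third region by T, chr10:127810236-127810829, had a T of 1555 and lay on the highest background of the 5, 94.0 reads. The fourth, chr15:82113731-82114365, had a T of 1551 and the closest pDC interval, at 311 bp. The fifth, chr8:125228385-125228983, had a T of 1515, and footprints covered only 9.68% of its bases. Scaled by depth, at the ratio of 1.75, the pileups of these 5 regions were 5.20 to 9.04 times the smallest one set for the pDC list. The larger ratios of the shared intervals, which lowered the median over all 4169 regions, were not applied to the named regions. Their nearest pDC intervals were all shared with cDC1 and had T of 163 to 432.

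The regions with the most footprints were wide, and their T ran from 425 to 1044. The first, chr7:108509536-108510521, held 24 footprints in 986 bp with a T of 686, and footprints covered 36.9% of it. The second, chr3:54485470-54486810, held 22 in 1341 bp with a T of 530. The third, chr8:46495073-46496632, held 21 in 1560 bp with a T of 1044, and the fourth, chr11:95666245-95667342, 21 in 1098 bp with a T of 425. The fifth, chr1:175381460-175382217, held 20 in 758 bp with a T of 648 and had the highest coverage by footprints, 41.7%. All 5 had 2 or 3 summits.

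The regions with the largest −log10 q had high pileups over backgrounds of 27.2 to 47.5 reads, 4 of the 5 above the median background of 28.7 reads. The first, chr6:71987464-71988046, had a −log10 q of 586, with 661 reads over 33.0, a T of 1424 and 3 footprints. After chr2:30907803-30908476 came chr1:21076254-21076872, with 630 reads over 33.6 and 2 footprints, and chr5:135008185-135008738, with 576 reads over 27.2 and 3 footprints. The fifth, chr18:64778219-64778900, had 607 reads over 33.4 and 5 footprints. It was the single one of the 15 listings whose nearest pDC interval was not shared with cDC1. Scaled by depth, again at the ratio of 1.75 only, these 5 were at 9.04 to 11.0 times the smallest pileup set for the pDC list.

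At the other end, 26 of the 4169 regions (0.624%) had a −log10 q of 10 or less although their T was 402 to 593. Their pileups were 137 to 279 reads over backgrounds of 75.5 to 198 reads, and their fold enrichment was 1.33 to 1.80. They lay on 13 chromosomes, but 7 of them fell in one stretch of chromosome 11 (chr11:3030790-3090572). That stretch held 38 cDC1 intervals and 30 pDC intervals, and the background of the 7 was 155 to 198 reads. These 26 regions pass the limit on T, which takes no account of background, and the 2 regions that fell short of the pDC limit at the ratio of depths were among them.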

How the data were processed

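Peaks and footprints came from Omni-ATAC-seq of 2 cDC1 and 2 pDC samples. Per the methods and the submitters' processing notes, Trim Galore, Bowtie2 (mm9) and SAMtools served for trimming, alignment and removal of duplicates. The authors called peaks with MACS2 and, on merged replicates, footprints with HINT-ATAC; 1 peak list per cell type was deposited, and whether it was called on merged replicates is not stated. Their versions were not stated. The deposited peak lists give a fold enrichment (a ratio to background), a −log10 p and a −log10 q per summit. The methods name a filter for a q value over 10 after overlapping peaks were merged. Read as −log10 q, the deposited cDC1 list goes below it. The weaker cDC1-only intervals had a lowest −log10 q of 1.30 and a first quartile of 5.93. The main counts use the lists as deposited, and no alternative run filtered all cDC1 intervals in this way. The value of each footprint in the deposited lists was read as a tag count, not scaled for depth; where around the footprint tags were counted was not stated. Positions ran past the GRCm38 ends of 8 of 21 chromosomes and were kept as mm9.

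Lines of 1 interval (same chromosome, start and end) were joined, keeping the values of the summit with the largest −log10 q. Pileup n and background b were solved from fold enrichment (n + 1)/(b + 1) and the Poisson tail. Distances count the bases between intervals. Steps were tested on simulated data in scipy 1.17.1, numpy 2.4.6 and pandas 2.3.3, under Python 3.11.15, and matplotlib 3.10.9 drew the plots. Shares have 95% Wilson intervals and medians 95% order-statistic intervals. These are computed over regions and the lists hold no replicates, so they cover counting error only. The total depth of each sample is not in the lists.

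Members, lists and tests were chosen with earlier results of these data known, and pileups were added later. Named regions were the 5 with the largest T, the 5 with the most footprints, the 5 with the largest −log10 q and the 3 largest groups; the 26 regions of low −log10 q were chosen after their values were seen. Planned results on transcription starts, gene lists, marker genes, motifs and sequences were not computed, since no mm9 genome or annotation was used here.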

Additional observations from a re-analysis of the deposited data

Results flagged for a closer look

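Chromosomes X and Y were left out by the rule, and 41 cDC1 intervals there met both other conditions. All 41 lay on chromosome X, where they made up 11.3% of 362 intervals with T of at least 400 (95% Wilson interval 8.46% to 15.0%), against 14.0% to 20.1% on the single autosomes. Their T ran from 405 to 735 with a median of 469, and they had a median of 5 footprints and a median width of 526 bp. The difference from the autosomes was not tested.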

How the results depend on the processing

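The median of 6 footprints per region was the same under each alternative run. The number of regions depended on the limits: 7131 with T of at least 300, 1521 with T of at least 600, and 7271 when pDC intervals counted as open only with a −log10 q over 10. It was 3405 without regions that had a pDC interval within 1 kb. The share of strong cDC1 intervals found in cDC1 only was 22.8%, 9.47%, 29.8% and 14.0% under these 4 alternatives in the same order. The share of regions with another within 10 kb was 30.4%, 12.4%, 32.5% and 19.2%. It was 14.9% with a distance of 5 kb and 33.5% with 20 kb. The share whose scaled pileup reached the pDC limit was 100% with T of at least 600 and 100% without the 26 regions with a −log10 q of 10 or less, 99.71% with the pileup ratio of shared intervals and 99.54% with that of strong shared intervals. The share reaching the pDC limit, under each alternative, and leaving out those 26 regions were chosen after seeing the data.

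No paired analysis was possible because the lists hold 1 value per cell type and do not separate the replicates, and leaving out a replicate was not run for the same reason. Alternatives on transcription starts and on the motif were not run, since they need an mm9 genome. The lists give no measure of biological spread, and a region missing from the pDC list has no pDC value of its own.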
